A study of Mus musculus with 4 samples.

Results

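The flagellin response of wild-type nasal mucosa is described here by 2 of the 4 arrays of the series, 1 of a wild-type mouse sample given PBS and 1 of a wild-type sample given flagellin. The response of a gene is its deposited log2 value in the flagellin array minus that in the PBS array, so that a difference of 1 is a 2-fold higher signal. The other 2 arrays, from mucosa labelled Duox2-/- and given PBS or flagellin, are shown beside them as further measurements. All mice were 8 weeks old, and the labels write the strain as C56BL/6. Into each nostril went 25 ul of solution, flagellin at 5 ug/ml or PBS, and the treatment lasted 4 h. Total RNA came from the mucosa lifted off the cartilage and bone of the nasal septum and turbinates. With 1 array per group there is no spread between replicates, so every statement below concerns size in these arrays and none has a p-value. The labels do not say how many mice each sample stands for.

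Flagellin is the protein subunit of the bacterial flagellum. Epithelial cells sense it outside the cell through Toll-like receptor 5, and phagocytes and epithelial cells sense it in the cytosol through NAIP proteins and NLRC4. The receptor signals through the adaptor Myd88 and IRAK kinases to the transcription factor NF-kB, which induces chemokines, antimicrobial proteins and its own inhibitors. Nasal mucosa is a mixed tissue: respiratory epithelium with ciliated and secretory cells, olfactory epithelium with sensory neurons, submucosal glands, vessels and resident or incoming leukocytes.

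The 35556 probe sets gave 19938 genes through probe sets with exactly 1 gene symbol. Of these, 12471 are called bright, with a value of 6.52 or more, the overall median, in 1 array or more. Dim genes lie nearer the background of the array, and their differences carry less information. The median log2 value was 6.48 in the PBS array and 6.499 in the flagellin array of wild type, and both medians were 6.56 under the Duox2-/- label. The labelled tissue was checked by its markers. All 18 matched markers of mature olfactory neurons were bright, with the olfactory marker protein gene Omp at 11.94 in PBS and 11.99 in flagellin. The targeted gene of the series, Duox2, was dim in every array (4.95 and 5.12 in wild type, 5.23 and 5.504 under the Duox2-/- label), and the part of the gene its probe set covers is not given, so it checks nothing about the labels.

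Over the bright genes the wild-type difference had a median of -0.002, and 98% of genes lay between -0.47 and 0.97. At least 2-fold higher were 115 genes, which is 0.922% of those measured, and at least 2-fold lower were 7, which is 0.0561%. Of the 115, 50 were olfactory receptor genes and 65 were other genes (0.54% of bright non-receptor genes). Without a brightness filter the counts were 167 (0.838%) and 11 (0.0552%) of all genes. With a brightness filter on the mean of the 2 wild-type arrays they were 55 and 4, of which 16 of the higher were receptor genes. For scale, the 2 PBS arrays, which differ by genotype label and not by flagellin, differed by 2-fold or more at 176 bright genes (1.41%), against 122 (0.978%) for the 2 wild-type arrays. A 2-fold difference between single arrays was therefore no rarer without flagellin.

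**Figure D1:**
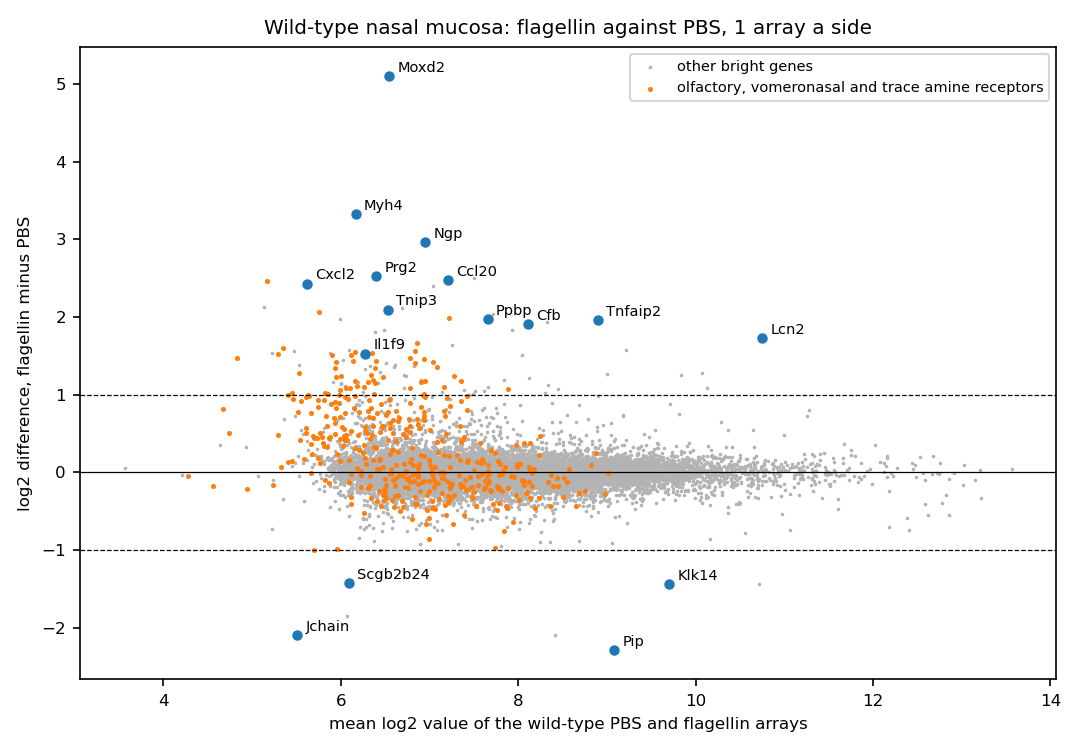
Log2 difference between the wild-type flagellin and PBS arrays (vertical axis) against the mean log2 value of both arrays (horizontal axis) for 12471 bright genes. Grey points are genes and orange points receptor genes, dashed lines mark a 2-fold size, and named genes are blue. Moxd2 stands highest at 5.10 and Pip lowest at -2.29, and the 50 receptor genes past the upper line lie to the left of 8.

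Ccl20, Cxcl2 and Tnip3 were among the 25 highest ranked genes. Ccl20, which draws dendritic cells and lymphocytes that carry Ccr6, had a log2 value of 5.97 in the PBS array and 8.44 in the flagellin array, a 5.56-fold higher signal. Cxcl2, a ligand of the neutrophil receptor Cxcr2, was at 4.40 and 6.83, higher by 2.43. Its PBS value lay below the lower quartile of that array, 5.06, so it may be near background and the difference too small. Tnip3, which restrains NF-kB signalling together with the ubiquitin-editing enzyme A20, was at 5.49 and 7.58. In each of these genes the flagellin array of wild type was the highest of all 4 arrays, and the flagellin array labelled Duox2-/- came next.

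The promoters of 3 of these genes and of Nfkbia, the gene for the classical NF-kB inhibitor, are shown because all 4 hold a match to the NF-kB consensus and belong to the pathway that flagellin engages. The sequences are RefSeq's for GRCm38.p6, from 250 bases before to 50 after the gene start, written 5′ to 3′ on the gene's strand, with bases that match the consensus on either strand in capitals. Ccl20 lies at chr1:83116516-83116815 (+ strand), Cxcl2 at chr5:90903649-90903948 (+), Tnip3 at chr6:65590148-65590447 (+) and Nfkbia at chr12:55492598-55492897 (- strand).
Ccl20: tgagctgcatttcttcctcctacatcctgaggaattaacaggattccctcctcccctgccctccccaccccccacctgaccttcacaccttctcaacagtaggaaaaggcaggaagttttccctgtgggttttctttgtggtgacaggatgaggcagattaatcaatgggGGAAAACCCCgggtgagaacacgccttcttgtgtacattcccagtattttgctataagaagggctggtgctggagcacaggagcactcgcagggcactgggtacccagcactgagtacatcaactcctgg
Cxcl2: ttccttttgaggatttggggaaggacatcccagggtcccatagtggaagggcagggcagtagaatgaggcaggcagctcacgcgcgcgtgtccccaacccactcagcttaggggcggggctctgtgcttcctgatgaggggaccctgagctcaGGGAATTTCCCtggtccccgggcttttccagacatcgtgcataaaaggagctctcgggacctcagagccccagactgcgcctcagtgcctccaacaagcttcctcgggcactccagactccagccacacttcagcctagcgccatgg
Tnip3: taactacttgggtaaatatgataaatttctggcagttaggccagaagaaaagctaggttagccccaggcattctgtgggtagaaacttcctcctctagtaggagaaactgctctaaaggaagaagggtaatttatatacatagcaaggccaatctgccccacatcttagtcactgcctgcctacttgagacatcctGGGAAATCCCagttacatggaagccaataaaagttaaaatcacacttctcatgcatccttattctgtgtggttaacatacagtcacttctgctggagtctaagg
Nfkbia: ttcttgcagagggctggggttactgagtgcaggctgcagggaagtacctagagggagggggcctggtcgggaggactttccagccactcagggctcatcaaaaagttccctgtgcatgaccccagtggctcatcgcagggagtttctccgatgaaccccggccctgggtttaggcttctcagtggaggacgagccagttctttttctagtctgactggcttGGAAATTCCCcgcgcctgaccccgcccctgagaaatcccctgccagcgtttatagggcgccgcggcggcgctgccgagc
The match begins 80 bases before the start in Ccl20, 97 in Cxcl2, 54 in Tnip3 and 29 in Nfkbia. In Cxcl2 a run of 11 bases holds overlapping matches.

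Over all genes with a promoter in the table, 5.14% (1388 of 27025) held the NF-kB consensus in such a window. Of the bright non-receptor genes at least 2-fold higher, 52 had a promoter there and 8 of them (15.4%) held it, among them Steap4 and Chil1. Of the 16 feedback inhibitors of NF-kB, 14 had a promoter and 9 (64.3%) held it. Here the list itself is made of known NF-kB targets, and most of its members were not past 2-fold. The AP-1 motif TGANTCA was in 8.97% of all and 8 of 52 (15.4%), the TATA box TATAAA in 15.7% and 21 of 52 (40.4%), the C/EBP motif TTNNGNAA in 44.1% and 36 of 52 (69.2%), and the CRE motif TGACGTCA in 2.03% and 0 of 52. All were searched on both strands, and a match describes letters, not binding.

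Receptors and adaptors of flagellin sensing differed little. Of 15 matched members 8 were above 0, against 52.1% of all genes, with a median of 0.02 beside 0.01 over all genes, and 0 were past 2-fold in either direction. Irak3, an inhibitory member of the IRAK family, was at 7.05 and 7.65, and Myd88 at 8.04 and 8.53. The kinase gene Irak1 was at 8.33 and 8.05, and the inflammasome protease Casp1 was dim at 5.38 and 5.59. Tlr5 was not analysed here.

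Among NF-kB subunits Nfkb2 was at 7.17 in PBS and 7.83 in flagellin, while Rel, Relb and Rela differed by 0.27, 0.20 and -0.11. The feedback inhibitors had a median difference of 0.30, with 12 of 16 above 0 (against 52.1% of all genes). Past 2-fold was 1 (6.25%, against 0.838% of all genes). After Tnip3 came Zc3h12a, an RNase that degrades cytokine mRNAs, at 6.04 and 6.95, and Tnfaip3, which encodes A20, at 6.58 and 7.40. Bcl3 was at 6.62 and 7.30, Nfkbia at 8.20 and 8.70 and Nfkbiz at 7.48 and 7.94. Zfp36, whose product destabilises Tnf mRNA, had 7.49 in both arrays. The differences of Bcl3 (0.67) and Tnip3 (0.86) in the arrays labelled Duox2-/- pointed the same way, that of Tnfaip3 was 0.01 and that of Nfkbia was -0.25. Tnfaip2, a TNF-induced gene, was at 7.92 and 9.88, a 3.90-fold higher signal, and Birc3, an inhibitor of apoptosis, at 7.33 and 8.04. Of the 15 matched survival and immune regulators 14 were above 0, with a median of 0.14.

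The neutrophil-attracting CXC chemokines and their receptors had 8 of 9 members above 0, a median difference of 0.44 and 3 members past 2-fold (33.3%, against 0.838% of all genes). Beside Cxcl2, Ppbp, the precursor of a platelet-derived neutrophil attractant, was at 6.67 and 8.64, and the receptor gene Cxcr2 at 6.08 and 7.34. Cxcl5, an epithelial attractant, was just under 2-fold, at 8.41 and 9.39. Cxcl1 (5.33 and 5.77) and Cxcl3 (3.91 and 4.09) were dim, and Cxcl15, dim too, differed by -0.15. Of the 26 other chemokines 21 were above 0, with a median of 0.37 and 2 past 2-fold. After Ccl20 came the dim interferon-inducible Cxcl9 (5.24 and 6.34), then Cxcl16 (6.94 and 7.94), Cxcl13 (dim, 5.21 and 6.21), the monocyte attractant Ccl12 (5.79 and 6.70) and Ccl3 (5.78 and 6.76). The eosinophil attractant Ccl24 was at 4.75 and 4.74.

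Cytokine genes were mostly dim. In the interleukin-1 family Il1f9, which encodes IL-36 gamma, was at 5.51 and 7.04 and Il1b at 5.79 and 7.09. They were the 2 of 12 members past 2-fold (16.7%, against 0.838% of all genes). The antagonist Il1rn (5.68 and 6.41) and Il1a (3.74 and 4.36) were dim, and the family's median was 0.18 over all members but -0.05 over the 5 bright ones. Among TNF, interleukin-6 and colony-stimulating cytokines and their receptors 15 of 17 were above 0 (against 52.1% of all genes). Their median was 0.31, with 0 past 2-fold. Osmr, a receptor subunit for oncostatin M, was at 7.40 and 8.28, the neutrophil growth factor receptor Csf3r at 5.74 and 6.62, and the dim Tnf at 5.46 and 6.18 and Csf2 at 4.82 and 5.43. Il6 had 2.71 and 2.72, near the floor of the array. The 9 matched genes of the interleukin-17 and interleukin-22 pathway lay between -0.11 and 0.25, with Il17a at 5.36 and 5.48 and Il17c at 5.77 in both arrays.

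Of 22 antimicrobial and iron-withholding genes 17 were above 0 (against 52.1% of all genes) and 4 past 2-fold (18.2%, against 0.838%), and their median was 0.27. Lcn2, which binds bacterial siderophores, already stood at 9.88 in PBS and was at 11.61 in flagellin. S100a8 and S100a9, the subunits of the metal-binding protein calprotectin, were higher by 1.83 and 1.15, S100a8 from 5.57 to 7.40. The defensin gene Defb4 was dim, at 4.26 and 5.94. Ltf, the iron-binding lactoferrin, was among the brightest genes and had 12.56 in both arrays. Of 13 acute phase genes 11 were above 0, with a median of 0.31. Serpina3n was at 10.89 and 11.62, while Saa3 (5.04 and 6.16) and Orm1 (5.70 and 6.49) were dim. In the complement list Cfb, factor B of the alternative pathway, was at 7.15 and 9.06, 3.75-fold higher, whereas the other 14 members differed by 0.71 or less, C3ar1 the most. The list's median was 0.32, with 12 of 15 above 0.

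**Figure D2:**
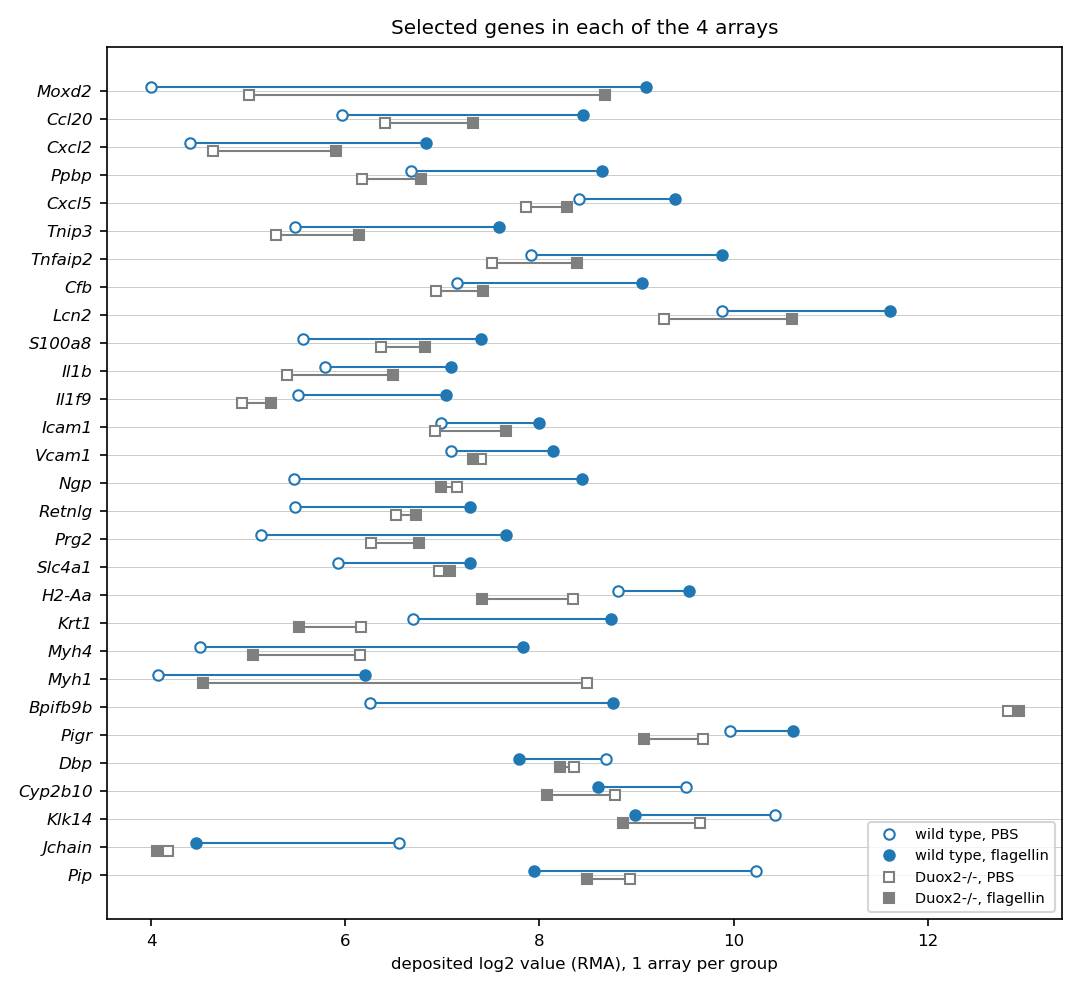
Deposited log2 values (horizontal axis) of 29 genes in each of the 4 arrays. Circles are wild type and squares the arrays labelled Duox2-/-, open symbols PBS and filled symbols flagellin, and lines join the 2 arrays of a genotype. From Moxd2 to Icam1 the filled circle lies right of the open one and the squares are shifted the same way by less, whereas for Myh4 and Myh1 the squares run in the opposite direction.

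Genes that leukocytes and vessel walls use for adhesion were all above 0 (13 of 13, against 52.1% of all genes). Their median was 0.43, with 2 past 2-fold (15.4%, against 0.838% of all genes). Vcam1 was at 7.09 and 8.13 and Icam1 at 6.99 and 7.99, both ligands of leukocyte integrins on endothelium. The integrin genes Itgam and Itgb2 were higher by 0.70 and 0.64, and the endothelial selectin gene Sele was at 7.12 and 7.72. Itgb7 was closest to 0, with a difference of 0.06. With the Duox2-/- label Icam1 differed by 0.73 and Vcam1 by -0.08. The endothelial markers as a list stood apart from these genes: their median was -0.04, with 5 of 14 above 0, and the vascular cadherin gene Cdh5 was at 7.44 and 7.42.

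Genes of blood-derived cells were higher in the flagellin array. In bulk tissue more cells of a type and more RNA per cell cannot be told apart. Of 26 neutrophil markers 23 were above 0 and 12 past 2-fold (46.2%, against 0.838% of all genes), with a median of 0.81. The granule protein gene Ngp was at 5.47 and 8.44, Retnlg at 5.48 and 7.28, Chil3, also made by macrophages, at 5.63 and 7.74, and the dim collagenase gene Mmp8 at 4.21 and 6.07. The summed linear signal of the list was 8381 in PBS and 11768 in flagellin, most of it from Ltf and Lcn2, which nasal epithelium and glands also make. Across all 4 arrays the PBS array of wild type was lowest for Ngp: the arrays labelled Duox2-/- had 7.15 in PBS and 6.99 in flagellin. The same held for Retnlg, at 6.52 and 6.73 there.

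All 19 monocyte and macrophage markers were above 0 (against 52.1% of all genes), with a median of 0.60. Past 2-fold were 3 (15.8%, against 0.838% of all genes): Chil3, the chemokine receptor gene Ccr2 (6.11 and 7.35) and F13a1 (7.25 and 8.43). Adgre1, which encodes the macrophage antigen F4/80, was at 6.44 and 7.10, and the dim Aif1 was closest to 0, with a difference of 0.03. The median of this list was -0.15 with the Duox2-/- label, with 7 of 19 above 0. There 48.7% of all genes and 36.5% of bright non-receptor genes were above 0, and 13 of the 19 were bright. Of 8 eosinophil markers 6 were above 0 and 3 past 2-fold (37.5%, against the same 0.838%). Their median was 0.39, and 2 of the 8 were bright. Prg2, the major basic protein, was at 5.13 and 7.66, and the dim Ear6 and Epx at 4.88 and 6.48 and at 4.68 and 5.77. The dim receptor genes Ccr3 and Il5ra differed by 0.09 and 0.07, and the bright lipoxygenase gene Alox15 by -0.23. All 15 markers of T and natural killer cells were above 0 (against 52.1% of all genes), with a median of 0.23, but only 2 of the 15 were bright. Past 2-fold was 1 (6.67%, against 0.838% of all genes), Cd3g at 5.31 and 6.88. The other CD3 chain genes, both dim, differed less, Cd3d by 0.47 and Cd3e by 0.34. Dendritic cell markers had a median of 0.32 (7 of 10 above 0) and mast cell markers 0.05 (6 of 9), with 2 bright members in each list.

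Red cell genes were higher along with the leukocyte genes. Of 11 matched members 10 were above 0 (against 52.1% of all genes) and 4 past 2-fold (36.4%, against 0.838%), with a median of 0.66. The carbonic anhydrase gene Car1 was at 4.70 and 6.26. It passed the brightness cut only in the PBS array labelled Duox2-/-, at 6.70. The anion exchanger gene Slc4a1 was at 5.93 and 7.28, and the dim Rhag and Epb42 were higher by 1.17 and 1.03. The summed signal of the list was 786 in PBS and 1128 in flagellin, and 1129 and 1124 in the arrays labelled Duox2-/-, so the wild-type PBS array was the low one of the 4. The part of blood content in the leukocyte differences was not tested.

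**Figure D3:**
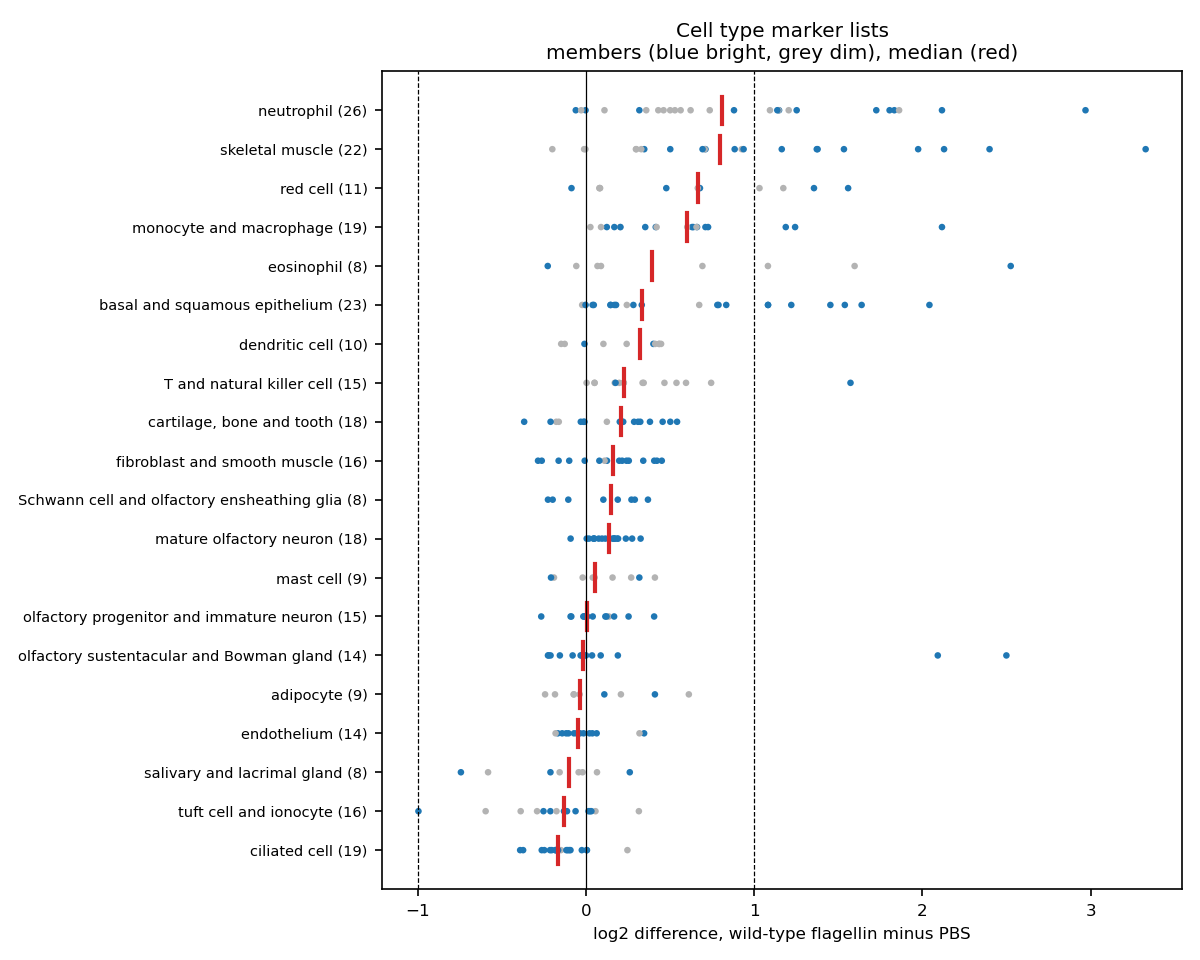
Log2 differences between the wild-type flagellin and PBS arrays (horizontal axis) for each matched member of 20 cell type marker lists, with the number of matched genes in brackets. Blue points are bright genes, grey points dim genes, and red bars list medians. Neutrophil, skeletal muscle, red cell and monocyte and macrophage lists have the highest medians, from 0.60 to 0.81, and ciliated cells the lowest, at -0.16.

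All 15 members of the MHC presentation and immunoproteasome list were above 0 (against 52.1% of all genes). Their median was 0.29, with 0 past 2-fold. Outside the list and chosen after its value was seen, the MHC class I gene H2-Q4 was past 2-fold, at 6.87 and 7.92. B2m, the light chain of MHC class I, was at 10.87 and 11.68, the class II genes H2-Aa, H2-Ab1 and H2-Eb1 at 8.81 and 9.54, 8.82 and 9.54, and 8.33 and 8.98, and their chaperone Cd74 at 8.05 and 8.70. With the Duox2-/- label these 5 genes were lower after flagellin, from -0.94 for H2-Aa to -0.20 for H2-Eb1. The whole list had a median of -0.04 there, with 9 of 15 below 0, where 63.5% of bright non-receptor genes were. Of the 15, 13 were bright. Interferon-stimulated genes did not share the wild-type direction: 10 of 21 were above 0 in wild type, with a median of -0.02. The guanylate-binding protein gene Gbp5 (dim) was at 5.02 and 6.12 and Cxcl10 at 6.32 and 6.88, whereas the antiviral genes Mx1 and Mx2, both dim, were at 6.51 and 5.64 and at 5.97 and 5.37.

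All 21 cell cycle genes were above 0 (against 52.1% of all genes), with a median of 0.39 and 0 past 2-fold. Top2a, the mitotic topoisomerase, was at 7.10 and 7.85, and Mki67 at 6.97 and 7.62. A second probe set of Top2a read 2.88 and 2.73, near the floor of the array, and gave -0.15. The replication helicase gene Mcm2 differed least, by 0.05. With the Duox2-/- label the list's median was -0.09, with 6 of 21 above 0, where 36.5% of bright non-receptor genes were. Of the 21, 17 were bright.

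NADPH oxidase and peroxidase genes were led by those of phagocytes and eosinophils. Cybb, the catalytic subunit of the phagocyte oxidase, was at 7.78 and 8.90, the neutrophil peroxidase gene Mpo at 5.43 and 6.57 and its dim eosinophil counterpart Epx at 4.68 and 5.77. These were the 3 of 15 members past 2-fold (20%, against 0.838% of all genes), and the median was 0.28. Duoxa2, which matures Duox2, was dim at 5.59 and 5.88. Of the oxidant defence enzymes 10 of 21 were above 0, with a median of -0.01. Slc7a11, the cystine importer that feeds glutathione synthesis, was the 1 past 2-fold, at 7.80 and 8.81, while catalase (Cat) was at 8.97 and 8.66 and Nqo1 at 10.27 and 9.98.

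Immediate early genes lay on both sides of 0 at 4 h: 9 of 20 were above 0, with a median of -0.02, Jun at 8.64 and 8.91 and Egr1 at 7.05 and 6.47. Eicosanoid genes had a median of 0.13, with the leukotriene pathway gene Alox5ap at 6.79 and 7.45 and the inducible cyclooxygenase Ptgs2 at 6.66 and 6.97. Matrix proteases had a median of 0.18, and beside Mmp8 the dim Adamts4, an aggrecan-degrading protease, was at 5.34 and 6.29. Heat shock chaperones had a median of 0.05, with Hspb1 at 8.18 and 8.92, where a second probe set gave 0.79 beside 0.74. Glucocorticoid-induced and metallothionein genes were all above 0 (11 of 11), with a median of 0.19, and after Lcn2 the next was Mt2, at 10.75 and 11.24.

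Clock genes were the list with the lowest median, -0.34, with 10 of 15 below 0, against 47.9% of all genes, and 0 past 2-fold. Dbp, an output gene driven directly by the clock, was at 8.69 and 7.79, Nr1d1, the repressor REV-ERB alpha, at 9.13 and 8.25, Ciart at 6.65 and 5.98, with -0.50 in its second probe set beside -0.67, and Per3 at 8.05 and 7.47. Arntl, whose transcription Nr1d1 represses, was at 6.86 and 7.31, and Nfil3 at 6.70 and 7.21. The labels do not give the clock time at which tissue was taken, so time of day and flagellin cannot be told apart. The list's median was -0.23 with the Duox2-/- label, where Ciart, Per3, Nr1d1 and Dbp differed by -0.54, -0.51, -0.23 and -0.14.

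**Figure D4:**
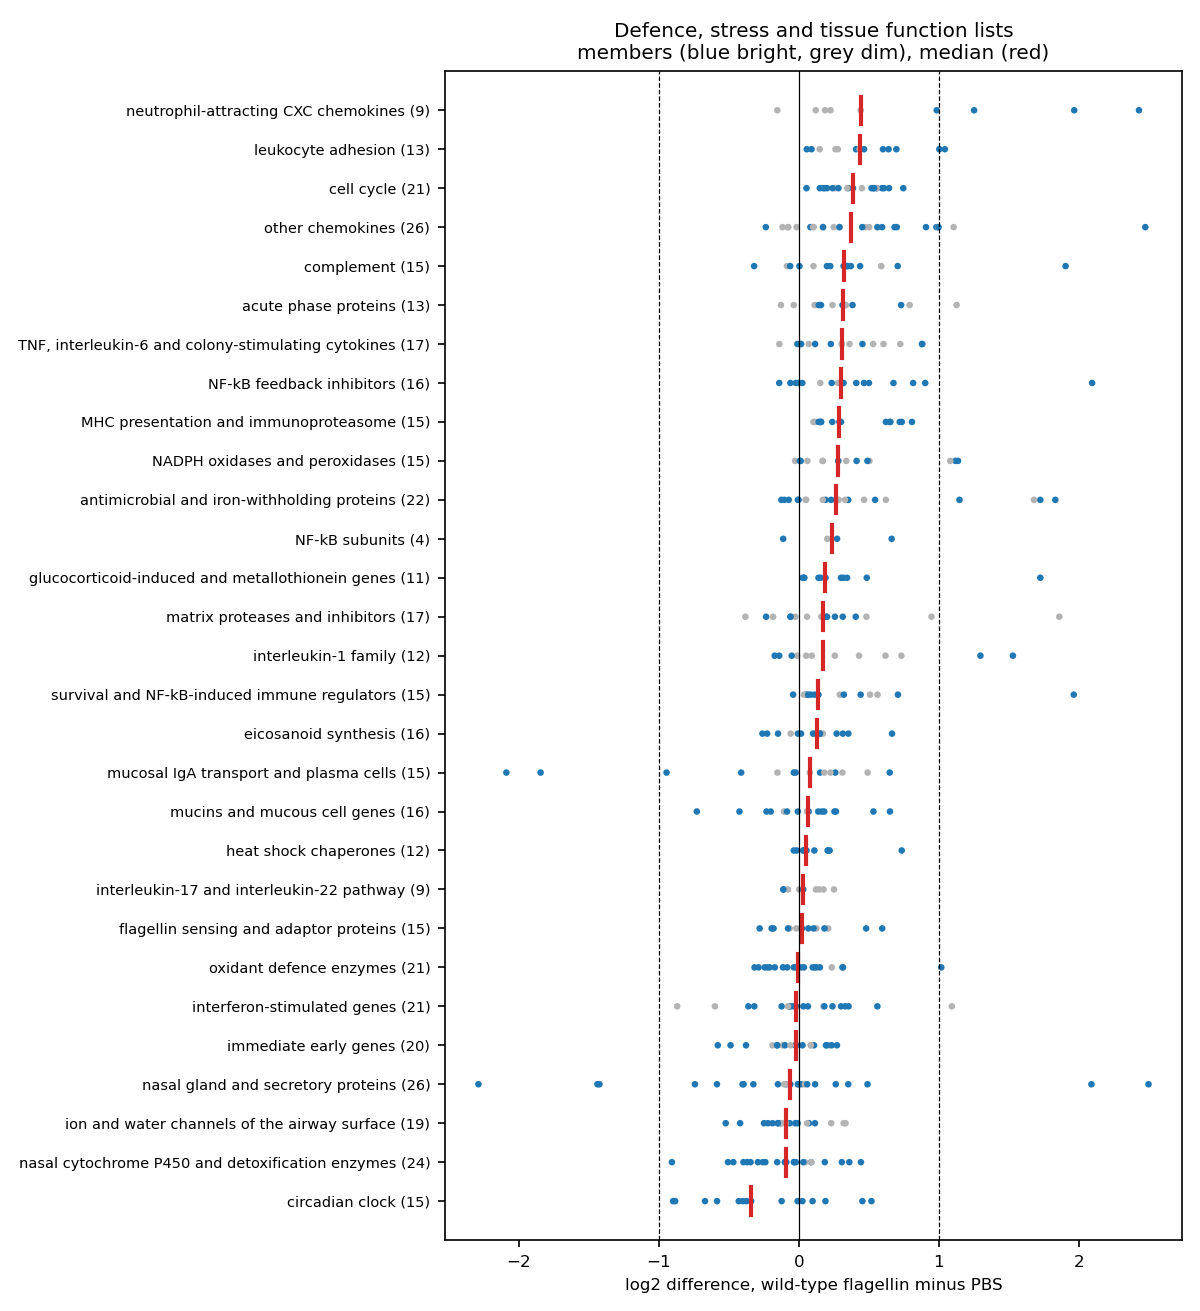
Log2 differences between the wild-type flagellin and PBS arrays (horizontal axis) for each matched member of 29 lists of defence, stress and tissue function, with the number of matched genes in brackets. Blue points are bright genes, grey points dim genes, red bars list medians and dashed lines a 2-fold size. Medians run from 0.44 for neutrophil-attracting chemokines to -0.34 for the circadian clock, and the gland list has members past 2-fold on both sides.

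Secretory genes stood on both sides of 0. Of 26 nasal gland genes 2 were past 2-fold upwards and 3 downwards (against 0.0552% of all genes), with a median of -0.06. Pip, a secreted protein of exocrine glands, was at 10.23 in PBS and 7.94 in flagellin, the protease gene Klk14 at 10.42 and 8.98, and the secretoglobin gene Scgb2b24 at 6.80 and 5.37. With the Duox2-/- label these 3 differed by -0.45, -0.80 and -0.89. Bpifb9a and Bpifb9b, lipid-binding secretory proteins of nasal glands with closely similar sequences, were at 5.47 and 7.56 and at 6.26 and 8.76. They stood at 12.24 and 12.83 in the PBS array labelled Duox2-/-, far above both wild-type arrays. Bpifb6, of the same family, had 12.20 in both wild-type arrays, and the lipocalin gene Lcn4 was at 12.77 and 12.03.

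Both genes past 2-fold in the list of mucosal IgA transport and plasma cells were lower. The list as a whole had 8 of 15 above 0 and a median of 0.08, which was -0.04 over its 9 bright members. Jchain, which joins IgA subunits into polymers, was at 6.56 and 4.47, and Igha, the IgA heavy chain, at 6.99 and 5.14, with a second probe set at -1.98 beside -1.84. For both the PBS array of wild type was the highest of the 4 arrays: Jchain was at 4.18 and 4.06 and Igha at 5.46 and 5.73 in the arrays labelled Duox2-/-. Pigr, the epithelial receptor that carries polymeric IgA to the lumen, was higher, at 9.96 and 10.61. Derl3, of endoplasmic reticulum quality control, was at 8.28 and 7.34, Bhlha15, a transcription factor of exocrine secretory cells, at 7.51 and 6.77, Qsox1, which forms disulphide bonds, at 10.95 and 10.17, and the growth factor gene Egf at 8.64 and 7.87. The salivary and lacrimal gland list had a median of -0.10, with 6 of 8 below 0. The B-cell gene Ms4a1 (dim) was at 3.75 and 4.24, and the receptor gene Tnfrsf13c at 6.15 and 6.13.

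Of the 20 lowest ranked genes 19 were also below 0 with the Duox2-/- label, where 63.5% of bright non-receptor genes were, and their median was -0.89 in wild type and -0.42 there. The exception was the urinary protein gene Mup5, with differences of -0.74 and 0.11. Others of the 20 were Gucy2c, a guanylate cyclase receptor (6.94 and 5.94), B4galnt2, a glycosyltransferase (7.78 and 6.86), Cyp2b10 (9.51 and 8.60), Agt, the angiotensin precursor (8.80 and 7.91), and Lrrc26, a potassium channel subunit of secretory cells (10.59 and 9.74).

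Mucin genes diverged. The membrane mucins Muc4 and Muc1 were at 8.14 and 8.79 and at 8.63 and 9.16, while Muc5ac was at 9.38 and 9.55 and Muc5b, the main gel-forming mucin of glands, had 10.93 in both arrays. Gcnt3, which branches mucin glycans, was at 8.38 and 7.65. The mucin list had a median of 0.06, with 9 of 16 above 0. Detoxification enzymes had a median of -0.09 (8 of 24 above 0), with Cyp2b10 lowest, Cyp4b1 at 9.16 and 8.65 and the retinal dehydrogenase gene Aldh1a1 at 11.83 and 11.37. Ion and water channels had the same median, with 6 of 19 above 0, the potassium channel gene Kcnn4 at 8.65 and 8.13 and the chloride channel gene Ano1 at 9.59 and 9.17. Of 19 ciliated cell markers 16 were below 0, against 47.9% of all genes, with a median of -0.16. The dynein genes Dnah5 and Dnah9 differed by -0.39 and -0.37, and the ciliogenesis factor Foxj1 was at 8.14 and 7.90. Tuft cell and ionocyte markers had a median of -0.13 (5 of 16 above 0), with the taste G protein gene Gnat3, dim, at 5.15 and 4.55.

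Genes of muscle and of squamous epithelium, tissues that border the mucosa, were past 2-fold as well. Of 22 skeletal muscle genes 8 were at least 2-fold higher (36.4%, against 0.838% of all genes), with a median of 0.80. The myosin gene Myh4 was at 4.50 and 7.83, the calcium pump gene Atp2a1 at 5.84 and 8.24 and Ttn, the giant sarcomere protein, at 5.00 and 6.98. The list's summed signal was 951 in the PBS and 2092 in the flagellin array of wild type, and 3983 in PBS and 1412 in flagellin with the Duox2-/- label. The largest sum was thus in a PBS array. Of 23 basal and squamous epithelium genes 7 were at least 2-fold higher (30.4%, against the same 0.838%), with a median of 0.33. The suprabasal keratins Krt1 and Krt10 were at 6.70 and 8.74 and at 6.44 and 8.08, and Lor, of the cornified envelope, at 5.11 and 6.64. With the Duox2-/- label the medians of these 2 lists were -0.92 and -0.40. The 18 matched genes of the cartilage, bone and tooth list had a median of 0.21 in wild type with 0 past 2-fold. The bone protein gene Ibsp was at 10.10 and 10.64. Ucma, a cartilage gene outside the list and chosen after its value was seen, was past 2-fold, at 6.99 and 8.03. The part of tissue composition in the other differences was not tested.

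Moxd2, a copper monooxygenase gene related to dopamine beta-hydroxylase, was the highest ranked gene. It was at 3.99 in the PBS array and 9.10 in the flagellin array of wild type, a difference of 5.10, and at 5.01 and 8.68 in the arrays labelled Duox2-/-. Both flagellin arrays were thus far above both PBS arrays. The wild-type PBS value lay below that array's lower quartile of 5.06, so it may be near background and no exact fold is read from it. Its promoter held no match to the NF-kB consensus. Each array is 1 sample, and 1 probe set measured the gene.

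Several genes past 2-fold were in none of the lists, 22 of the 65, and those named here, except Plekhs1, were chosen after their values were seen. Chil4 and Chil1, chitinase-like proteins, were at 8.37 and 9.64 and at 9.21 and 10.46. Steap4, a metalloreductase, was at 9.43 and 10.71, and Plekhs1 at 7.01 and 8.84. The long non-coding transcript AW112010 was at 5.80 and 7.22. The leukocyte receptor genes Lilr4b and Lilrb4a, near-identical neighbours whose probes may not separate them, were higher by 1.38 and 1.19. Chil4, AW112010, Plekhs1, Steap4 and Chil1 differed by 1.29, 1.05, 0.92, 0.70 and 0.66 in the arrays labelled Duox2-/-. Closest to the 2-fold size were Icam1 (1.004) and Slc7a11 (1.02) inside it and Cxcl16 (0.998) and Cxcl5 (0.99) outside it.

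The place of the wild-type arrays among all 4 is given as a description. Over all bright genes the wild-type flagellin array was the highest of the 4 for 26.8% and the wild-type PBS array the lowest for 18.5%, and choosing genes by a 2-fold difference favours both, so the counts below are partly set by the choice. Among the 14 genes past 2-fold from the chemokine, cytokine, antimicrobial, complement, adhesion and related defence lists, the flagellin array was the highest for 14 and the PBS array the lowest for 6. For the 12 from the leukocyte lists, 4 of which (S100a8, S100a9, Lcn2 and Cxcr2) are also among the 14, these counts were 12 and 8, and for the 7 squamous genes 7 and 1. For the 8 skeletal muscle genes they were 1 and 8. For the 50 olfactory receptor genes they were 5 and 50, so that the PBS array was the lowest of the 4 for each of them and the wild-type flagellin array was seldom the highest. The brightness cut also used all 4 arrays. Where a gene passed it only in an array labelled Duox2-/-, the wild-type flagellin array could not be the highest. That holds for Myh1, Myl1, Neb and Tnnc2 of the muscle genes. With the cut on the highest wild-type value, 40 of the 50 receptor genes remained. Of the 7 genes at least 2-fold lower, the PBS array was the highest of the 4 for 6.

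Read against the arrays labelled Duox2-/-, which share no array with the wild-type pair, 36 of the 65 non-receptor genes (55.4%) were above 0, where 36.5% of all bright non-receptor genes were. Of the 14 defence genes 13 were above 0 there, with a median of 0.67 beside 1.78 in wild type. The NADPH oxidase and peroxidase list was not counted among the defence lists. Its bright members past 2-fold, Cybb and Mpo, differed by -0.22 and 0.33 in the arrays labelled Duox2-/-. Of the 12 leukocyte genes 9 were above 0 (medians 0.25 and 1.65), including the 4 shared with the defence genes, and of 17 muscle, squamous, tooth and gland genes 3 (medians -1.10 and 1.54). Of those 17, 9 were at least 2-fold lower there (against 0.457%). Among the 9, Myh1, Myl1, Neb and Tnnc2 passed the brightness cut only in the PBS array labelled Duox2-/-. Passing in that array favours a lower difference in its pair, so this count and the median of the 17 are partly set by the cut. In the Duox2-/- pair of arrays 6 of the 65 were at least 2-fold higher, where 0.0996% of bright non-receptor genes were. Values chosen for their size in one pair of arrays tend to be smaller in another, so the smaller medians are no test of a difference between genotypes.

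Olfactory receptor genes, each of which is expressed by a small share of sensory neurons, were numerous among the genes past 2-fold. Of 1027 measured receptor genes 413 were bright, 723 were above 0 and 80 were at least 2-fold higher (7.79%, against 0.838% of all genes), with a median of 0.25. Their median value was 5.32 in PBS and 5.75 in flagellin, and 5.91 and 6.11 in the arrays labelled Duox2-/-. The highest were Olfr1257 at 3.94 and 6.39, Olfr728 at 4.72 and 6.79 and Olfr6 at 6.22 and 8.22. Next were Olfr1016 at 6.03 and 7.70 and Olfr1295 at 4.55 and 6.15. Mature olfactory neuron markers had 17 of 18 above 0, a median of 0.14, 0 past 2-fold and the chloride channel gene Ano2 highest, at 10.25 and 10.57. Their median was 0.31 with the Duox2-/- label, again with 17 of 18 above 0, where the median of all receptor genes was 0.17. Receptor genes are many and similar, and probes may be shared between close relatives.

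Class was assigned here by position: receptor genes of the neighbourhood from Olfr543 to Olfr692, where the older class I is known to lie, were taken as class I and all others as class II. The class I genes stood near 0. Of 116 class I genes 86 were bright, 42 were above 0 and 0 were at least 2-fold higher, with a median of -0.07. Of 911 class II genes 681 were above 0 and 80 at least 2-fold higher (8.78%), with a median of 0.31. Class I genes were the brighter, with a median of 7.16 in PBS against 5.13 for class II. At levels within the middle range of class I (4-array means of 6.26 to 7.75), 0 of 58 class I genes and 35 of 245 class II genes (14.3%) were at least 2-fold higher, with medians of -0.09 and 0.32. With the Duox2-/- label the medians were 0.16 for class I and 0.17 for class II, and 0 class I and 26 class II genes were at least 2-fold higher (against 0.221% of all genes).

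Most class II receptor neighbourhoods had a median above 0, but its size varied between them. Of 18 neighbourhoods with at least 15 measured receptor genes, where genes less than 1000000 bases apart in GRCm38.p6 were joined, 16 had a median above 0. The other two were the class I neighbourhood and the one from Olfr16 to Olfr220 (median -0.02). The highest medians were 0.57 from Olfr522 to Olfr541 and 0.56 from Olfr90 to Olfr136, and the largest neighbourhood, Olfr987 to Olfr1274, had 23 of 215 genes at least 2-fold higher (10.7%) and a median of 0.27. In the neighbourhood from Olfr151 to Olfr986 this was 1 of 92 (1.09%, against 0.838% of all genes). There the median was 0.05, and 50 of 92 were above 0, close to the 52.1% of all genes.

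**Figure D5:**
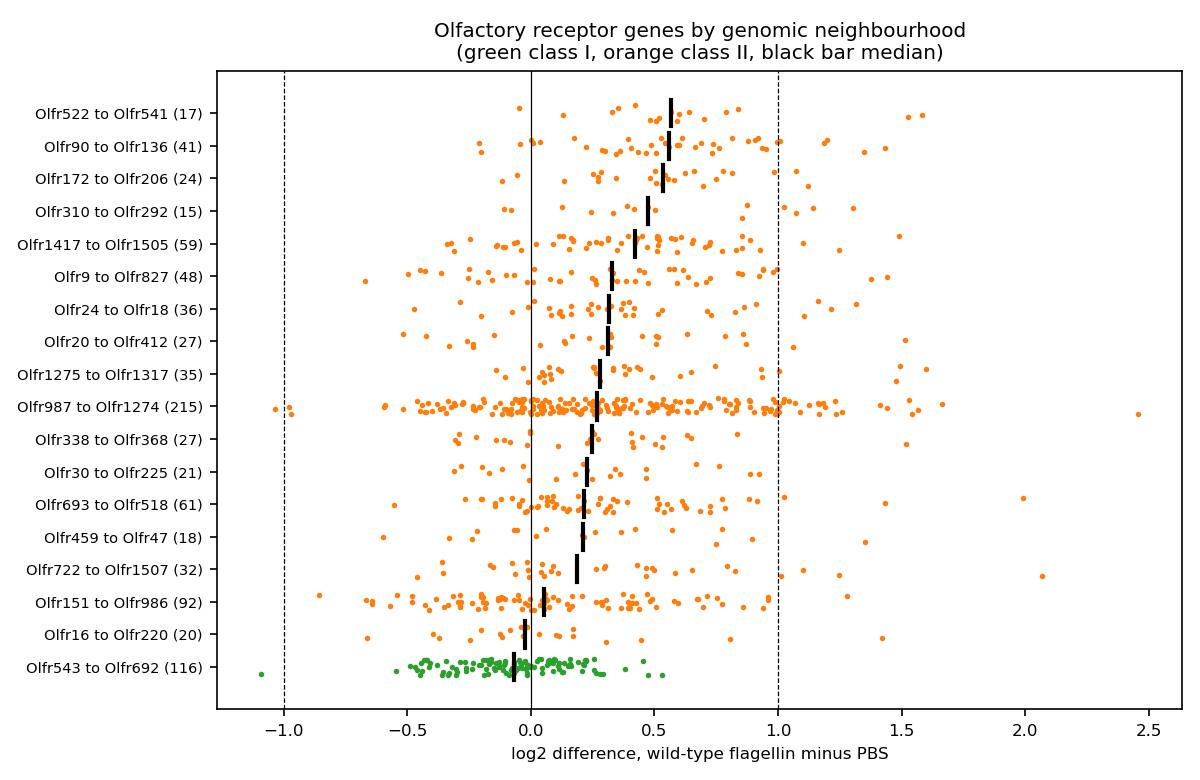
Log2 differences between the wild-type flagellin and PBS arrays (horizontal axis) for olfactory receptor genes in 18 genomic neighbourhoods, named by their first and last gene with the number of genes in brackets. Green points are class I and orange points class II genes, black bars are medians, and points are scattered vertically only to separate them. The class I neighbourhood has the lowest median, -0.07, and no gene past the 2-fold line on the right.

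Other chemosensory receptors stayed under 2-fold. The 13 trace amine-associated receptors, which serve a small set of sensory neurons, had a median of -0.14, with Taar7b highest, at 6.94 and 7.43. The 118 type 1 and 49 type 2 vomeronasal receptors, which belong to the vomeronasal organ, were nearly all dim (4 and 2 bright), with medians of -0.02 and -0.03.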

How the data were processed

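Total RNA of 4 nasal mucosa samples was measured on whole-transcript mouse gene arrays, 1 per group. The deposited values are log2 values that the authors made with RMA in Affymetrix Expression Console 1.1, per the submitters' processing notes. RMA corrects background, equalises probe distributions between arrays and summarises each probe set, and it compresses large differences of dim genes. The number of arrays limits the precision of every value. No source used here gives the genome build of the probe sets.

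Of 35556 probe sets 21789 had 1 gene symbol in the platform annotation, 1621 had several and 12146 were unnamed here. For 999 genes with several single-gene probe sets, that with the highest 4-array mean was used. Differences are flagellin minus PBS within the deposited values, counted at a log2 size of 1. Named genes were the 25 highest and 20 lowest bright genes without predicted, receptor, immunoglobulin, small RNA and histone genes, up to 6 of each list plus the one closest to 0, lists of 10 or fewer whole, the 5 highest of each receptor family and 16 fixed genes, of which 15 were matched. Of 854 memberships in 49 lists 768 were matched, and the others were not analysed here. The members and lists were chosen with earlier results of these data known. Promoters came from RefSeq (GRCm38.p6), matched by gene ID. Python 3.11.15, numpy 2.4.6, pandas 2.3.3, matplotlib 3.10.9 and, for an alternative scaling, limma 3.58.1 in R 4.3.3 were used.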

Additional observations from a re-analysis of the deposited data

Results flagged for a closer look

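In 7 named genes the wild-type response and that of the arrays labelled Duox2-/- were both past 2-fold and of opposite sign, and the difference between them was not tested. The wild-type and other responses were 3.33 and -1.10 for Myh4, 2.40 and -2.63 for Atp2a1, 2.13 and -3.95 for Myh1, 1.97 and -2.79 for Ttn, 1.53 and -1.98 for Myl1, 1.38 and -1.92 for Neb, and 1.22 and -1.34 for Krt6b. Of these, 6 belong to the skeletal muscle list and Krt6b is a keratin gene of squamous epithelium. Over all 65 bright non-receptor genes at least 2-fold higher in wild type, 10 were at least 2-fold lower in the other pair. The other 3, outside the naming rule, were Tnnt3 (1.37 and -2.24), Tnnc2 (1.16 and -1.38) and Mybpc1 (1.17 and -1.58). Myh1, Myl1, Neb and Tnnc2 passed the brightness cut only in the PBS array labelled Duox2-/-, so their wild-type values were all dim.

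Probe sets outside the gene comparison also differed. Of 939 bright probe sets with several genes 15 were at least 2-fold higher in the wild-type flagellin array (1.60%) and 3 lower. Of 5018 bright probe sets with no listed gene 23 were higher (0.458%) and 21 lower, with the highest at 3.38.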

How the results depend on the processing

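The 115 higher and 7 lower genes were 107 and 10 with each array centred on its median, 97 and 7 after a further quantile normalisation, 114 and 10 after cyclic loess, and 115 and 7 under both other probe set rules. With no brightness filter they were 167 and 11, with the filter on the highest wild-type value 100 and 7, and on the wild-type mean 55 and 4. Without receptor genes they were 65 and 7, and without muscle, squamous, tooth and gland genes 98 and 4. At 1.5-fold they were 294 and 71, and at 3-fold 28 and 4. Bright olfactory receptor genes at least 2-fold higher numbered 50, and 39 to 50 under the scalings and probe set rules, 80 with no filter, 40 and 16 with the filters on the highest and mean wild-type value, 117 at 1.5-fold and 5 at 3-fold. Of 49 list medians 36 were above 0, and 31 to 37 under the alternatives. Filters on the highest and on the mean wild-type value changed the sign of 5 and 6 list medians. Class II receptors kept a median of 0.28 to 0.31 and class I receptors one of -0.09 to -0.06 under the scalings. Of 380 named genes 374 to 380 moved by less than 0.145, the robust SD over bright genes, under each scaling and probe set rule, and of the 62 past 2-fold 59 to 62 stayed past it. No paired analysis was possible because each group has 1 array. The cause of the larger shifts was not tested, except that stricter filters and sizes count fewer genes.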

Other observations

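Class I receptors and most trace amine-associated receptors are known to be carried by neurons of the dorsal zone of the olfactory epithelium, and many class II receptors by neurons of the ventral zones. The genes below were chosen after the receptor values were seen. Nqo1 and Acsm4, expressed in dorsal zone neurons or epithelium, had log2 values of 10.27 and 11.89 in the wild-type PBS array and 9.98 and 11.77 in the flagellin array. Ncam2, a cell adhesion gene of ventral zone neurons, was at 7.27 and 7.88. In the arrays labelled Duox2-/- Nqo1, Acsm4 and Ncam2 differed by 0.13, 0.25 and 0.30. Of the genes that mature sensory neurons share, Omp differed by 0.05, Adcy3 by 0.08, Rtp1 by 0.17 and Rtp2 by 0.02 in wild type. The whole list of mature olfactory neuron markers had 17 of 18 above 0 in wild type. Its median was 0.14, beside 0.01 over all genes, and Ano2 was highest, at 0.33. The part of the dissected zones in the receptor differences was not tested.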
